A study of Mus musculus with 13 samples.

Results

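The fatty acid oxidation genes of the mouse right ventricle were followed as 32 named genes out of 26264 gene symbols in the deposited tables. They were listed by symbol, but with earlier results of these data known, so they are not a set picked blind to the data. Polyadenylated RNA of the right ventricle was sequenced in 7 libraries of Dsg2 F536C knock-in mice and 6 of wild-type mice. Dsg2 is the gene of desmoglein 2, one of the adhesion proteins in the desmosomes between heart muscle cells, and the knock-in serves as a model of arrhythmogenic cardiomyopathy, in which the study asked about PPAR-gamma signalling, fibrosis and lipid. Zygosity, age, sex and strain of the mice are not in the labels. The labels also do not say that each library is its own animal, so part of the spread that enters each p-value may be technical.

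Long-chain fatty acids are the main fuel of the adult heart. They are activated to acyl-CoA, carried into mitochondria as acylcarnitines, and shortened there by repeated rounds of dehydrogenation, hydration, a second dehydrogenation and thiolysis, with electrons passed to the respiratory chain through the electron transfer flavoprotein. The genes of this pathway are known targets of the nuclear receptors PPAR-alpha and the estrogen-related receptors and of their coactivator PGC-1alpha.

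Totals ran from 14498336 to 29848597 reads per library. Knock-in 4, 5 and 6 stood apart: fractional read estimates made up 10.2% to 10.7% of their genes, against 3.07% to 3.79% for the remaining 10 libraries, and the keratin gene Krt8 reached 909 to 1189.6 CPM (reads of the gene scaled to the library total with TMM factors), against at most 6.38 CPM elsewhere. Each result is therefore given with 13 libraries and with 10, without these 3. Xist, a covariate in an alternative fit, was at 785 to 1038 CPM in knock-in 1, 3 and 7 and at 576 to 770 CPM in wild type 1, 4 and 5. It was at most 3.47 CPM in the other libraries, among them knock-in 2, 4, 5 and 6. Each group thus held libraries of both levels, and with 10 libraries only knock-in 2 of the knock-in group was low. Dsg2 transcript averaged 47.7 ± 10.3 CPM in knock-in and 101 ± 11.2 CPM in wild type (SD, n = 7 and 6), with no overlap. Scaled to cardiomyocyte markers in place of TMM, its log2 change with 13 libraries was -0.23 and not called (edgeR adjusted p = 0.18). A substitution need not change transcript level, so the level of Dsg2 does not check the labels. All 18 cardiomyocyte markers were measured and none of the 6 liver and kidney markers passed the filter on low counts.

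Transcripts of nearly every step were lower in knock-in. By edgeR's quasi-likelihood test at an adjusted p under 0.05, 30 of 32 genes were lower with 13 libraries and 0 higher, where 21.0% of the 14588 tested genes were lower and 23.6% higher. With 10 libraries 31 were lower and 1, Cpt1a, was higher, where 21.3% of 14518 genes were lower and 22.3% higher. All 32 passed the filter on low counts. Their median log2 fold change, knock-in over wild type, was -1.15 with 13 libraries and -1.0 with 10, against 0.080 and 0.016 over all tested genes. By CPM, every knock-in library lay below every wild-type library in 28 genes, which held for 10.5% of all genes. With 10 libraries this held in 30, against 15.1% of all genes. By TPM some of these genes overlapped. Acsl1 had 154 TPM in knock-in 2 and 143 in wild type 5, and Acads 97.9 in knock-in 3 and 77.1 in wild type 5. Others stayed apart, such as Acot1, with 9.36 TPM in knock-in 6 and 16.1 in wild type 6 as the nearest values. In 0 genes did every knock-in library lie above every wild-type library by CPM, which held for 8.61% and 14.8% of all genes. By TPM with 10 libraries Cpt1a did, at 20.1 TPM or more in knock-in and 16.1 TPM or less in wild type.

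**Figure D1:**
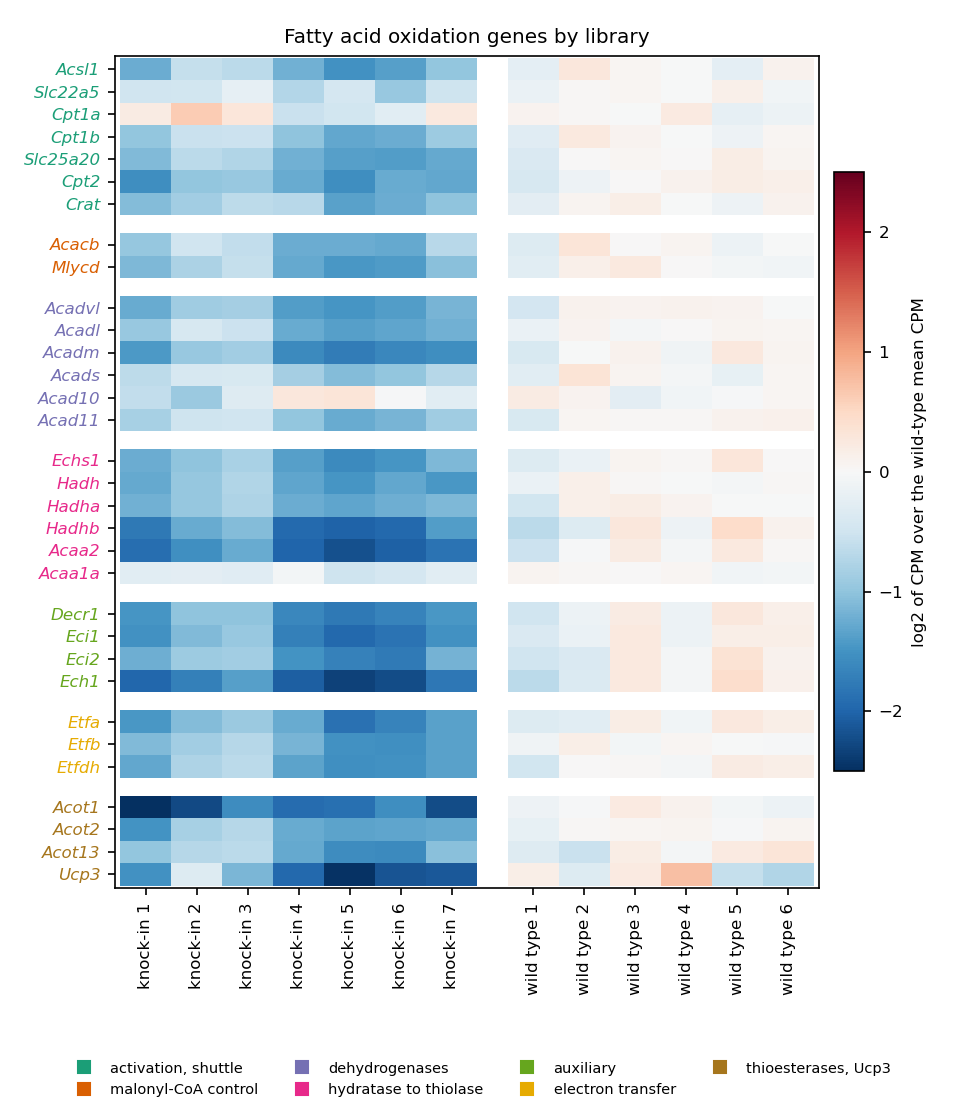
Each gene (rows, coloured by role) in each library (columns, knock-in left, wild type right), as the log2 of its CPM over the wild-type mean CPM. Knock-in columns are lower for 30 genes; in Cpt1a knock-in 4, 5 and 6 lie below the wild-type mean and the other 4 above it.

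Summed as TPM, which scales reads by gene length, the 32 genes made up 0.814% ± 0.144 of all transcripts in knock-in and 1.55% ± 0.165 in wild type (SD, n = 7 and 6). The knock-in libraries ran from 0.682% to 1.06% and the wild-type libraries from 1.23% to 1.67%, without overlap, and the 4 knock-in libraries left without 4, 5 and 6 averaged 0.903% ± 0.129. Cardiomyocyte genes were lower in the same libraries. Of 18 cardiomyocyte markers, 14 were lower with 13 libraries and 12 with 10, none was higher in either, and none was at 0 in every library. Their summed share was 5.36% ± 1.12 of TPM in knock-in, from 4.31% to 7.39%, and 8.55% ± 0.895 in wild type, from 7.48% to 9.99%, also without overlap. In bulk tissue, fewer cardiomyocytes and less RNA per cardiomyocyte cannot be told apart. Per 100 TPM of cardiomyocyte markers, the oxidation genes had 15.3 ± 0.995 TPM in knock-in, from 13.4 to 15.98, and 18.2 ± 1.48 TPM in wild type, from 16.4 to 19.8.

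**Figure D2:**
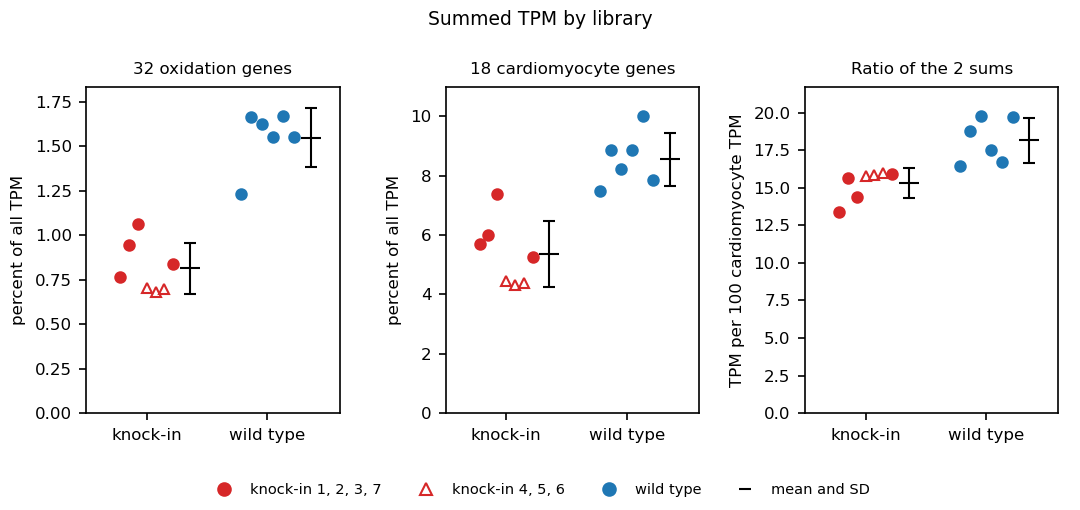
Summed TPM of the 32 oxidation genes and of 18 cardiomyocyte markers as percent of all TPM, and the ratio of the sums; points are libraries (open triangles, knock-in 4, 5 and 6), bars mean and SD. Knock-in lies below wild type in each panel; the highest knock-in and lowest wild-type ratios are 15.98 and 16.4.

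When libraries were scaled to the cardiomyocyte markers in place of TMM, 19 of the 32 genes were lower and 3 higher with 13 libraries, where 2.44% of all genes were lower and 79.3% higher. With 10 libraries 21 were lower and 1 higher, where 3.25% of all genes were lower and 63.1% higher. The median of all genes then stood at 0.95 and 0.56 on the log2 scale, against -0.32 and -0.47 for the oxidation genes. The 10 genes not called in that scaling with 13 libraries were Acsl1, Slc22a5, Cpt1b, Crat, Acacb, Acadl, Acads, Acad11, Hadha and Acot13, and the 3 higher were Cpt1a, Acad10 and Acaa1a. Markers of other cells were counted in the first fit, with TMM scaling, and differed by list. In that fit 21.0% of all genes were lower and 23.6% higher with 13 libraries, and 21.3% and 22.3% with 10. Of 10 fibroblast markers, 5 were higher with 13 libraries and 8 with 10, with summed levels of 4316 to 6448 TPM in knock-in and 2324 to 3017 TPM in wild type. Of 10 macrophage markers, 6 and 9 were higher, at 1423 to 3317 TPM in knock-in and 874 to 1079 TPM in wild type. None of 6 white adipocyte markers was called in either set, at 27.4 to 534 TPM in knock-in and 77.2 to 753 TPM in wild type. Of 8 endothelial markers, 0 were called with 13 libraries and 2 were higher with 10, and of 5 erythroid markers 0 were called in either set. Of 8 smooth muscle and pericyte markers, 1 was lower and 3 higher with 13 libraries and 0 and 3 with 10. Of 6 tested skeletal muscle markers, 2 were lower and 2 higher in both sets. Of 4 tested brown adipocyte markers, 1 was lower and 1 higher in both sets. Of 5 tested epithelium markers, 5 were higher with 13 libraries and 0 were called with 10. The part of these cells in the results was not tested.

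**Figure D3:**
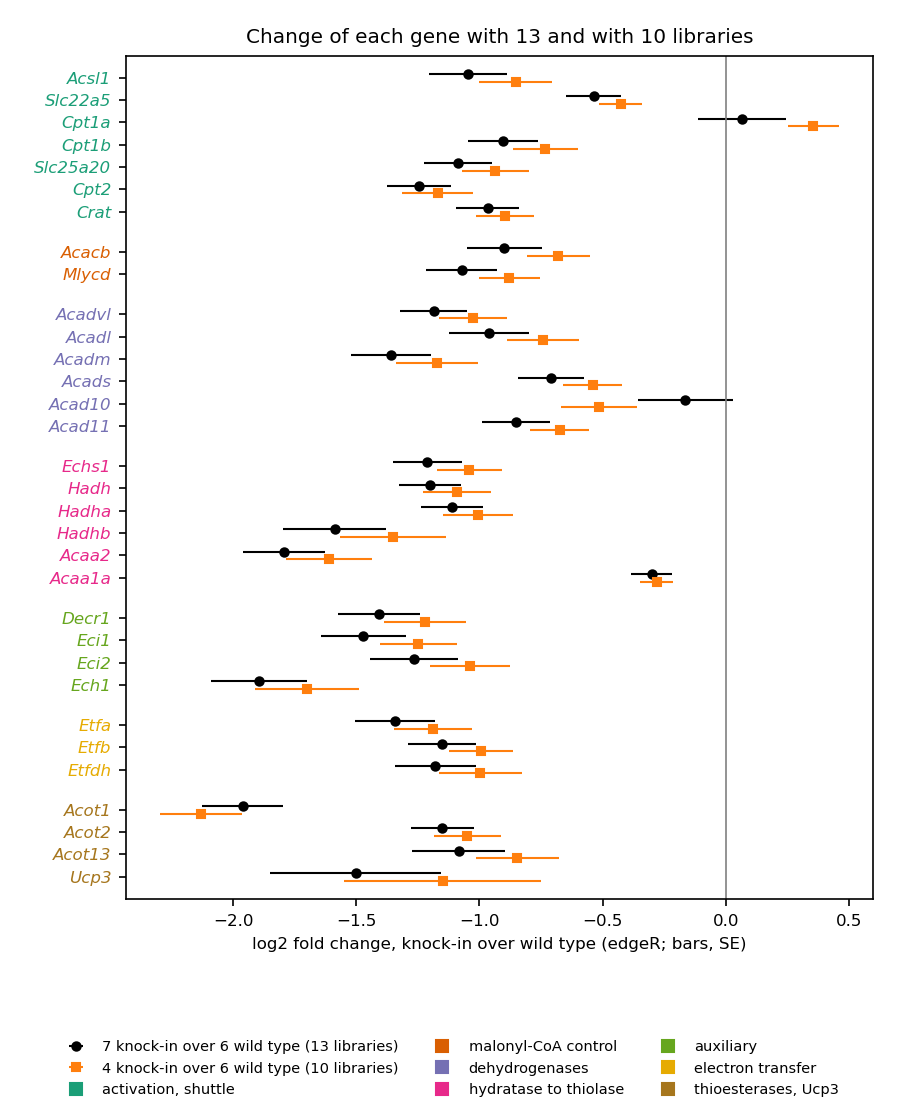
Log2 fold change, knock-in over wild type, of each gene with its SE (edgeR), with 13 libraries (black circles) and 10 (orange squares), ordered by role. Values run from -1.96 to 0.067 with 13 libraries and from -2.13 to 0.36 with 10.

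Promoter sequence is shown for 4 genes that mark the range of the results: Cpt1a, which did not fall; Acot1, which fell most; Ucp3, the only one with 2 copies of the nuclear receptor core motif searched; and Hadhb, which shares its upstream region with Hadha. Each is the 250 bases before the RefSeq start on GRCm38.p6, plus strand, 5′ to 3′, with AGGTCA on either strand in capitals: Cpt1a at chr19:3323051-3323300, Acot1 at chr12:84009252-84009501, Ucp3 at chr7:100472741-100472990 and Hadhb at chr5:30155003-30155252.
Cpt1a: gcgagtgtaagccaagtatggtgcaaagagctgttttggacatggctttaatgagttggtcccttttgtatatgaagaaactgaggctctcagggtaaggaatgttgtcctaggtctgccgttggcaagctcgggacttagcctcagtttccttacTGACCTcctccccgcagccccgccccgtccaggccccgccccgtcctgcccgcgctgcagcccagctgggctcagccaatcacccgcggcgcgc
Acot1: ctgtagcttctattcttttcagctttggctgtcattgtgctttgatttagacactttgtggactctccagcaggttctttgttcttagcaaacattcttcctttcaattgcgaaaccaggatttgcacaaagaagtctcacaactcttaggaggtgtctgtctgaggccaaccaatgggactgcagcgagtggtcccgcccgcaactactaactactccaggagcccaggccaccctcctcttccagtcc
Ucp3: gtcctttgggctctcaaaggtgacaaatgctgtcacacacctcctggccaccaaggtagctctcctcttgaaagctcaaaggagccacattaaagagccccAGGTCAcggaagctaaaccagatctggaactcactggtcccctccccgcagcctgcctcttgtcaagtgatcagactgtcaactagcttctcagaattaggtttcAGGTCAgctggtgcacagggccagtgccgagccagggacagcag
Hadhb: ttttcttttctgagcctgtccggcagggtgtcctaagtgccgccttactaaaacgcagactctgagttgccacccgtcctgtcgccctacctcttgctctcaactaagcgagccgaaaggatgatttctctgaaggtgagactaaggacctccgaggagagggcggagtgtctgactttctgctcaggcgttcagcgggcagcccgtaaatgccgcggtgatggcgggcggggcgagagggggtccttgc

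The start of Hadha, on the minus strand at 30154980 of chromosome 5, and that of Hadhb, on the plus strand at 30155253, are 272 bases apart, so the Hadhb stretch printed covers most of the gap between them. RefSeq windows of 300 bases, 250 before to 50 after the start, matched 27 of the 32 genes. AGGTCA, searched on both strands, occurred in 5 of the 27 (18.5%), namely Cpt1a, Acadvl, Acadm, Echs1 and Ucp3, and in 13.8% of 27025 genes with a window. The extended motif TCAAGGTCA and the direct repeats AGGTCANAGGTCA and AGGNCANAGGNCA, which each contain or overlap the core motif or a variant of it, occurred in 0 of the 27 and in 0.366%, 0.037% and 0.333% of all windows.

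In activation and the carnitine shuttle, 6 of 7 genes were lower in both sets, with median log2 changes of -0.97 with 13 libraries and -0.85 with 10. Acsl1, the synthetase that activates long-chain fatty acids in heart, was lower by -1.05 ± 0.16 (SE; edgeR adjusted p = 2.0e-04) and by -0.85 ± 0.15 with 10 libraries (edgeR adjusted p = 5.0e-04). Slc22a5, the plasma membrane carnitine transporter, was lower by -0.54 ± 0.11 and -0.43 ± 0.09 on the log2 scale, and its call was lost when libraries were scaled by their totals or tested as TPM, and its sign turned in the scaling to cardiomyocyte markers. Slc25a20, which exchanges acylcarnitine for carnitine across the inner membrane, had log2 changes of -1.09 ± 0.14 and -0.94 ± 0.14.

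Cpt2, which returns acylcarnitine to acyl-CoA in the matrix, ran from 69.0 to 106 CPM in knock-in (median 84.0) and from 152 to 230.5 CPM in wild type (median 211). Its highest knock-in library stayed below its lowest wild-type library. It was lower by a log2 change of -1.25 ± 0.13 (edgeR adjusted p = 1.5e-05) and -1.17 ± 0.14 with 10 libraries (edgeR adjusted p = 4.4e-05). Crat, the acetyltransferase that forms acetylcarnitine, ran from 199 to 323 CPM in knock-in (median 256) and from 425 to 576 CPM in wild type (median 524), also apart, with log2 changes of -0.97 ± 0.13 and -0.90 ± 0.12.

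The carnitine palmitoyltransferase 1 genes, which make acylcarnitine at the outer membrane, differed in their values. Cpt1b, the muscle form, had 229, 309, 313, 227, 186, 194 and 244 CPM in knock-in 1 to 7 and 368, 541, 485, 452, 415 and 469 CPM in wild type 1 to 6. Every knock-in library was lower by CPM, with log2 changes of -0.90 ± 0.14 (edgeR adjusted p = 2.5e-04) and -0.73 ± 0.13 with 10 libraries (edgeR adjusted p = 6.0e-04). By TPM the groups overlapped, with 151 and 157 TPM in knock-in 2 and 3 and 146 TPM in wild type 5. In the scaling to cardiomyocyte markers Cpt1b was not called (-0.078 and -0.20, edgeR adjusted p = 0.46 and 0.13). Cpt1a, the form that predominates in liver, had 60.5, 81.3, 64.6, 35.6, 37.6, 43.3 and 62.5 CPM in knock-in 1 to 7 and 55.8, 53.3, 52.3, 61.2, 45.1 and 47.5 CPM in wild type 1 to 6. Knock-in 4, 5 and 6 held the 3 lowest values of all and the other knock-in libraries lay near or above the highest wild-type value. The log2 change of Cpt1a was 0.067 ± 0.18 with 13 libraries (edgeR adjusted p = 0.78) and 0.36 ± 0.10 with 10 (edgeR adjusted p = 0.014). Without knock-in 2, which had the highest value, the 10-library fold change was 0.24 (edgeR adjusted p = 0.063).

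As a share of the summed TPM of both genes, which does not depend on library scaling, Cpt1a made up 14.8%, 14.7%, 11.9%, 9.35%, 11.7%, 12.8% and 14.5% in knock-in 1 to 7 and 8.99%, 6.07%, 6.62%, 8.16%, 6.65% and 6.21% in wild type 1 to 6. All knock-in libraries, including 4, 5 and 6, lay above all wild-type libraries. The means were 12.8% ± 2.01 in knock-in and 7.12% ± 1.18 in wild type (SD, n = 7 and 6), 5.71 percentage points apart (two-sided exact permutation p = 0.00117). With 10 libraries the knock-in mean was 13.96% ± 1.39 and the difference 6.85 points (two-sided exact permutation p = 0.00476, the smallest that 210 splits can give). Reads of Cpt1b were not whole numbers in any library and its exons overlap another annotated gene on the same strand, so the share of reads it received is uncertain. The Cpt1a share may also depend on the mix of cells. In the same knock-in libraries the summed cardiomyocyte markers were lower and the summed fibroblast and macrophage markers higher. Their part in the share was not tested.

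**Figure D4:**
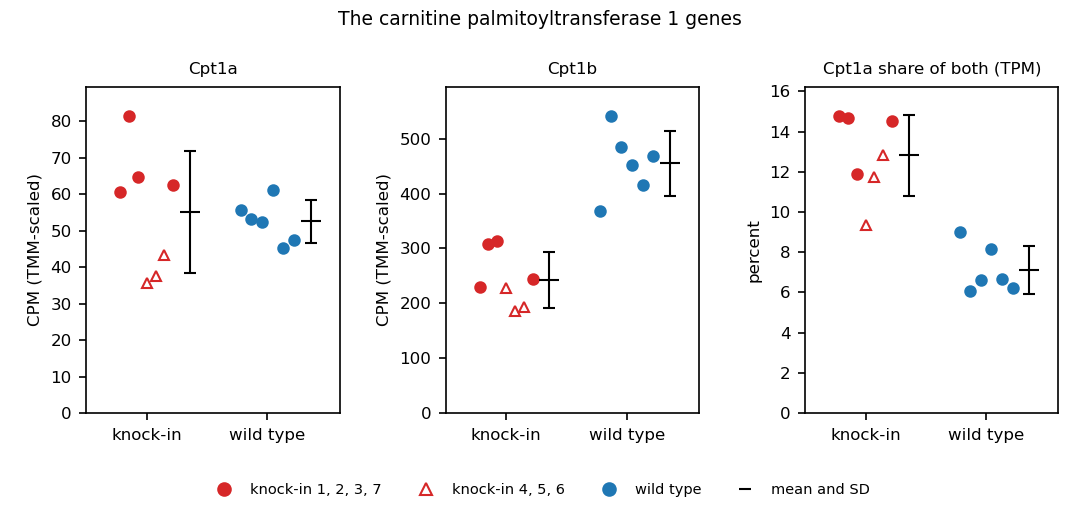
Cpt1a and Cpt1b in CPM and the Cpt1a share of their summed TPM in percent; points are libraries (open triangles, knock-in 4, 5 and 6), bars mean and SD. The Cpt1a share runs from 9.35% to 14.8% in knock-in and from 6.07% to 8.99% in wild type.

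Both genes among the 32 that make or remove malonyl-CoA, the inhibitor of carnitine palmitoyltransferase 1, were lower. Acacb, an acetyl-CoA carboxylase that makes malonyl-CoA, ran from 89.7 to 154 CPM in knock-in (median 111) and from 172 to 271 CPM in wild type (median 216). Mlycd, the decarboxylase that removes it, ran from 41.9 to 75.6 CPM in knock-in (median 53.0) and from 94.2 to 136 CPM in wild type (median 112). Neither gene's groups overlapped by CPM. By TPM those of Acacb did, with 24.1 TPM in knock-in 2 and 21.9 TPM in wild type 5. The log2 changes were -0.90 ± 0.15 for Acacb and -1.07 ± 0.14 for Mlycd with 13 libraries (edgeR adjusted p = 4.7e-04 and 8.8e-05), and -0.68 ± 0.13 and -0.88 ± 0.12 with 10. In a test on log2(TPM + 1) with 10 libraries the call of Acacb was lost (-0.27, limma adjusted p = 0.12). In the scaling to cardiomyocyte markers Acacb was not called in either set (-0.078 and -0.14, edgeR adjusted p = 0.51 and 0.34).

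Of the 6 acyl-CoA dehydrogenase genes, which take the first electrons from the chain, 5 were lower with 13 libraries and 6 with 10, at medians of -0.91 and -0.71. Acadvl, for very long chains, ran from 322 to 496 CPM in knock-in (median 376) and from 652 to 967 CPM in wild type (median 949), with log2 changes of -1.19 ± 0.14 and -1.03 ± 0.14 (edgeR adjusted p = 3.1e-05 and 8.1e-05). Acadm, for medium chains, ran from 518 to 947 CPM in knock-in (median 594) and from 1315 to 2073 CPM in wild type (median 1771), with log2 changes of -1.36 ± 0.16 and -1.17 ± 0.17 (edgeR adjusted p = 4.2e-05 and 1.2e-04). In both genes the groups were separate.

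The long-chain enzyme gene Acadl changed by -0.96 ± 0.16 and -0.74 ± 0.15 and the short-chain enzyme gene Acads by -0.71 ± 0.13 and -0.54 ± 0.12 on the log2 scale; the call of Acads was lost in a test on TPM and its sign turned in the scaling to cardiomyocyte markers. Acad11, a dehydrogenase family member, changed by -0.85 ± 0.14 and -0.67 ± 0.12. Acad10, another member, was the least abundant of the 32 in wild type by TPM, and had 4.16, 3.34, 5.09, 7.72, 7.98, 6.28 and 5.24 CPM in knock-in 1 to 7 and 7.38, 6.74, 5.28, 5.99, 6.23 and 6.58 CPM in wild type 1 to 6. Knock-in 4 and 5 held its highest values and knock-in 1, 2, 3 and 7 its lowest. Its log2 change was -0.16 ± 0.19 with 13 libraries (edgeR adjusted p = 0.51) and -0.51 ± 0.16 with 10 (edgeR adjusted p = 0.016), and the sign with 13 libraries turned to 0.081 when scaled by library totals, where the 10-library call was lost.

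All 6 genes of the hydratase, hydroxyacyl dehydrogenase and thiolase steps were called lower in both sets, with medians of -1.21 and -1.07. Acaa2, the mitochondrial thiolase that releases acetyl-CoA, ran from 231 to 444 CPM in knock-in (median 283) and from 736 to 1268 CPM in wild type (median 1067). The highest knock-in library was well below the lowest wild-type library, and the log2 changes were -1.79 ± 0.17 and -1.61 ± 0.17 (edgeR adjusted p = 7.2e-06 and 1.6e-05). Hadh, which dehydrogenates shorter hydroxyacyl chains, ran from 288 to 470.2 CPM in knock-in (median 323) and from 706 to 885 CPM in wild type (median 798), at -1.20 ± 0.13 and -1.09 ± 0.14 (edgeR adjusted p = 1.5e-05 and 5.3e-05). Echs1, the short-chain hydratase, changed by -1.21 ± 0.14 and -1.04 ± 0.13.

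Hadha and Hadhb encode the subunits of the trifunctional protein, which carries out these 3 steps on long chains, and lie head to head as printed above. Hadhb was at 1038 ± 285 CPM in knock-in and 3119.6 ± 857 CPM in wild type, and Hadha at 528 ± 73.4 CPM in knock-in and 1140.0 ± 169 CPM in wild type (SD, n = 7 and 6). Their log2 changes were -1.59 ± 0.21 and -1.35 ± 0.22 for Hadhb and -1.11 ± 0.13 and -1.01 ± 0.14 for Hadha; the difference between the genes was not tested. Acaa1a, a peroxisomal thiolase, had the smallest fall by CPM among the genes called lower, at -0.30 ± 0.08 and -0.28 ± 0.07 (edgeR adjusted p = 0.011 and 0.0046), but its sign turned on the TPM scale, where it averaged 46.4 ± 2.63 TPM in knock-in and 42.4 ± 6.20 TPM in wild type (SD, n = 7 and 6), and in the scaling to cardiomyocyte markers.

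The 4 auxiliary genes, whose enzymes move or reduce double bonds so that unsaturated chains can enter the cycle, were all lower, with the lowest role medians of the 13-library set at -1.44, and -1.23 with 10. Ech1, a dienoyl-CoA isomerase and the most abundant of the 32 genes in wild type by TPM, ran from 499 to 964 CPM in knock-in (median 633) and from 1570.0 to 3379.6 CPM in wild type (median 2585). On the TPM scale it averaged 1017 ± 209 in knock-in and 2812 ± 535.7 in wild type (SD, n = 7 and 6). Its log2 changes were -1.90 ± 0.20 and -1.70 ± 0.21 (edgeR adjusted p = 1.4e-05 and 4.6e-05). Eci1, an enoyl-CoA isomerase, ran from 142 to 284 CPM in knock-in (median 193) and from 424 to 651 CPM in wild type (median 556), at -1.47 ± 0.17 and -1.25 ± 0.16 (edgeR adjusted p = 3.5e-05 and 4.9e-05). Neither overlapped. Decr1, the dienoyl-CoA reductase, changed by -1.41 ± 0.17 and -1.22 ± 0.17 and Eci2, a second isomerase, by -1.27 ± 0.18 and -1.04 ± 0.16.

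The 3 electron transfer genes fell, with log2 changes between -1.34 and -1.15 with 13 libraries and between -1.19 and -0.99 with 10. Etfa, the alpha subunit of the flavoprotein, ran from 342 to 659.8 CPM in knock-in (median 489.6) and from 984 to 1496 CPM in wild type (median 1289.6). Etfb, the beta subunit, ran from 241 to 426 CPM in knock-in (median 309) and from 645 to 783 CPM in wild type (median 684). Both were separate between groups, at -1.34 ± 0.16 for Etfa and -1.15 ± 0.14 for Etfb with 13 libraries (edgeR adjusted p = 4.3e-05 and 4.1e-05). Etfdh, which hands the electrons to ubiquinone, changed by -1.18 ± 0.17 and -1.0 ± 0.17.

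The thioesterases, which release free fatty acid from acyl-CoA, were all lower. Acot1, the cytosolic long-chain enzyme, had 3.80, 4.82, 7.78, 6.09, 6.31, 7.86 and 4.94 CPM in knock-in 1 to 7 and 21.2, 22.7, 27.1, 24.8, 22.2 and 20.9 CPM in wild type 1 to 6. Each knock-in value was far below each wild-type value, and Acot1 had the largest fall of the 32 genes in both sets, with log2 changes of -1.96 ± 0.16 and -2.13 ± 0.17 (edgeR adjusted p = 3.3e-06 and 1.8e-06). The fitted fold changes put knock-in at 25.7% of wild type with 13 libraries and at 22.8% with 10. Acot2, the mitochondrial counterpart, ran from 25.1 to 43.5 CPM in knock-in (median 29.2) and from 61.6 to 74.6 CPM in wild type (median 73.1), at -1.15 ± 0.13 and -1.05 ± 0.14 (edgeR adjusted p = 2.6e-05 and 6.8e-05). Acot1 and Acot2 are close paralogs and neither had whole read numbers in any library, so reads may have been divided between them.

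Acot13, a small mitochondrial thioesterase, changed by -1.08 ± 0.19 and -0.85 ± 0.17; it was not called in the scaling to cardiomyocyte markers. Ucp3, the muscle uncoupling protein and a known PPAR target, varied more: 13.9, 31.1, 18, 10.2, 7.16, 8.82 and 9.15 CPM in knock-in 1 to 7 and 44.2, 31.1, 46.2, 66.6, 26.1 and 23.7 CPM in wild type 1 to 6. Knock-in 2 lay inside the wild-type range and the other 6 knock-in libraries below it. Its log2 changes were -1.50 ± 0.35 (edgeR adjusted p = 0.0041) and -1.15 ± 0.40 with 10 libraries (edgeR adjusted p = 0.042), and the call with 10 libraries was lost without any of wild type 1, 3 and 4 and knock-in 1, 3 and 7 (edgeR adjusted p from 0.060 to 0.12).

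Among the 32 genes, those with higher wild-type TPM had the more negative log2 changes. Spearman's rho was -0.518 with 13 libraries and -0.508 with 10, a description over 32 genes that share all libraries and whose wild-type level enters both measures. Read sharing bears on some members: Slc22a5, Cpt1b, Acad10, Acaa1a, Acot1 and Acot2 had read numbers that were not whole in at least 12 of 13 libraries, and 9 of the 32 overlap an exon on the opposite strand by at least 50 bases in a GENCODE annotation of GRCm38, with the strand setting of the counting not given.

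The receptors and coactivators known to act on these genes had median log2 changes of -0.56 and -0.27 over 10 regulators with 13 and 10 libraries, of which 6 and 5 were lower and none higher, where 21.0% and 21.3% of all genes were lower. Ppara, PPAR-alpha, had log2 changes of -0.85 ± 0.22 and -0.54 ± 0.17 (edgeR adjusted p = 0.0072 and 0.023) with overlapping groups. Without knock-in 1 or 7 the 10-library call was lost (edgeR adjusted p = 0.074 and 0.076). It was also lost with library totals (-0.30, edgeR adjusted p = 0.16) and with a replicate block (-0.41, edgeR adjusted p = 0.16). Both calls were lost on log2(TPM + 1) (-0.42 and -0.14, limma adjusted p = 0.081 and 0.51). In the scaling to cardiomyocyte markers Ppara was not called in either set (-0.078 and -0.014, edgeR adjusted p = 0.60 and 0.94). Pparg, PPAR-gamma, averaged 17.9 ± 8.96 CPM in knock-in and 14.7 ± 3.4 CPM in wild type (SD, n = 7 and 6), at 0.27 ± 0.26 and 0.51 ± 0.27 (edgeR adjusted p = 0.40 and 0.15); without knock-in 2 the sign with 13 libraries turned to -0.021. Pparg was called higher on log2(TPM + 1) (0.57 and 0.73, limma adjusted p = 0.041 and 0.033) and in the scaling to cardiomyocyte markers (1.04 and 0.99, edgeR adjusted p = 0.0015 and 0.0024). With 10 libraries it was also called higher with library totals (0.73, edgeR adjusted p = 0.044) and in a fit that included Xist (0.59, edgeR adjusted p = 0.041). Ppard was at 0.048 ± 0.13 and 0.011 ± 0.10 (edgeR adjusted p = 0.77 and 0.95), and was called higher on log2(TPM + 1) (0.45 and 0.39, limma adjusted p = 0.019 and 0.025) and in the scaling to cardiomyocyte markers (0.94 and 0.55, edgeR adjusted p = 0.0019 and 0.0046). The median of all genes was 0.38 and 0.32 on log2(TPM + 1). The estrogen-related receptors were lower in both sets: Esrrg by -1.09 ± 0.14 and -0.96 ± 0.15, Esrra by -0.58 ± 0.11 in both, and Esrrb by -0.55 ± 0.17 and -0.30 ± 0.11, though Esrra with 13 libraries and Esrrb in both sets turned upward in the scaling to cardiomyocyte markers and Esrrb with 10 libraries on the TPM scale. The calls of Esrra were lost on log2(TPM + 1) (-0.11 and -0.16, limma adjusted p = 0.44 and 0.29), as was that of Esrrb with 13 libraries (-0.13, limma adjusted p = 0.46), and those of Esrrg with 13 libraries and Esrra with 10 in the scaling to cardiomyocyte markers. The 10-library call of Esrrb was lost without knock-in 1, 2 or 7 or wild type 2, 4, 5 or 6 (edgeR adjusted p from 0.055 to 0.12). With library totals both calls of Esrrb were lost (-0.30 and -0.059, edgeR adjusted p = 0.14 and 0.70). Its 10-library call was also lost with a replicate block (-0.23, edgeR adjusted p = 0.37) and with Xist in the fit (-0.30, edgeR adjusted p = 0.061).

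The retinoid X receptor Rxrg was lower by -1.10 ± 0.13 and -0.92 ± 0.10, while Rxra was at -0.11 ± 0.11 and -0.031 ± 0.11 and was not called, except as higher in the scaling to cardiomyocyte markers (0.75 and 0.53, edgeR adjusted p = 0.0016 and 0.0064). Ppargc1a, PGC-1alpha, had 58.7, 337, 103, 48.1, 42.2, 67.4 and 50.3 CPM in knock-in 1 to 7 and 122, 150.1, 133, 148, 156 and 195 CPM in wild type 1 to 6. Knock-in 2 was above all wild-type libraries and the other 6 knock-in libraries below them. Its log2 change was -0.58 ± 0.45 (edgeR adjusted p = 0.31) and -0.14 ± 0.51 with 10 libraries (edgeR adjusted p = 0.85), and without knock-in 2 it was -1.29 and -1.11 (edgeR adjusted p = 3.1e-04 and 0.0015). DESeq2 gave -1.14 with 13 libraries (DESeq2 adjusted p = 4.5e-06), near the value without knock-in 2. It was run at its defaults, which can replace outlying counts in a group of 7 libraries. Whether the count of knock-in 2 was replaced was not checked. Ppargc1b was at -0.52 ± 0.18 (edgeR adjusted p = 0.032) and -0.24 ± 0.13 with 10 libraries (edgeR adjusted p = 0.14); the first call was lost without knock-in 4, 5 or 6 or wild type 2, 3, 4 or 5 (edgeR adjusted p from 0.051 to 0.067). Knock-in 2 also had 37.9 CPM of the brown adipocyte gene Ucp1, against at most 2.98 CPM in any other library. Summed over the 6 brown adipocyte markers, however, all knock-in libraries, knock-in 2 among them, were lower, at 3306 to 6131 TPM. Wild-type libraries had 6989 to 11071 TPM. The part of brown adipocytes in the values of knock-in 2 was not tested.

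Other genes around the pathway were counted by list; of all tested genes, 21.0% were lower and 23.6% higher with 13 libraries and 21.3% and 22.3% with 10. Of 16 further mitochondrial genes, 10 were lower and 1 higher with 13 libraries and 11 and 1 with 10: Hsd17b10, a hydroxyacyl dehydrogenase, changed by -0.71 ± 0.17 and -0.90 ± 0.12, and Ucp2, an uncoupling protein of many tissues, was the higher gene at 0.67 ± 0.16 and 0.83 ± 0.12. Of 16 tested acyl-CoA synthetases and transporters, 6 were lower and 4 higher with 13 libraries and 6 and 2 with 10, with Acsm5 at -2.15 ± 0.26 and -2.43 ± 0.28 and Acsl6 at -1.41 ± 0.14 and -1.36 ± 0.15. Of 19 peroxisomal oxidation genes, 11 were lower and 1 higher with 13 libraries and 11 and 0 with 10. The bifunctional enzyme gene Ehhadh changed by -1.25 ± 0.17 and -1.09 ± 0.17, and Pecr, a peroxisomal enoyl-CoA reductase, by -1.12 ± 0.17 and -0.88 ± 0.13.

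Of 7 tested other thioesterases, 3 were lower in each set and none higher. Acot3 separated the libraries that stood apart, with 7.80, 12.4 and 10.2 CPM in knock-in 4, 5 and 6, 0.145, 0.278, 0.790 and 0.528 CPM in knock-in 1, 2, 3 and 7, and 1.28 to 2.01 CPM in wild type. Its log2 change was 1.45 ± 0.88 with 13 libraries (edgeR adjusted p = 0.19) and -1.97 ± 0.36 with 10 (edgeR adjusted p = 6.8e-04). Acot7, a thioesterase abundant in brain, changed by -0.36 ± 0.13 and -0.54 ± 0.07, turning to 0.55 with 13 libraries when scaled to cardiomyocyte markers, and the 13-library call was lost without knock-in 1, 2 or 7 or wild type 2 to 6 (edgeR adjusted p from 0.052 to 0.10). Of 3 tested carnitine synthesis genes, 1 was lower with 13 libraries and 2 with 10. Tmlhe, which starts carnitine synthesis, changed by -0.65 ± 0.11 and -0.58 ± 0.12, and Aldh9a1, which acts later in it, by -0.043 ± 0.19 (edgeR adjusted p = 0.87) and -0.50 ± 0.09 (edgeR adjusted p = 5.8e-04).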

How the data were processed

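The 13 stranded Illumina libraries were made from poly(A)-selected RNA of mouse right ventricle, per the labels' protocols. DRAGEN and GRCm39 (mm39) are named in the submitters' processing notes, without a role; which annotation and strand setting the counting used is not given in the sources used here. The authors deposited an estimated count for each gene, often fractional, and a TPM value, per the file headers. Groups and replicate numbers came from the titles. The 32 genes, the gene lists and the tests were chosen with earlier results of these data known.

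Estimated counts were rounded, genes kept with filterByExpr, libraries scaled by TMM and groups compared in edgeR 4.0.16 (R 4.3.3) by robust quasi-likelihood F tests without covariates, with Benjamini-Hochberg adjustment over all tested genes and a threshold of 0.05. CPM used the factors of all 13 libraries. The SE is the size of the log2 fold change over the square root of F. For the Cpt1a share, group labels were permuted exactly and two-sided (Python 3.11.15, scipy 1.17.1), as 2 tests that share libraries and were not adjusted further. Values by library, or lowest, median and highest, are given for the 2 genes of each role with the smallest p with 10 libraries, for genes not called lower and for Cpt1a and Cpt1b. Other genes named are the regulators and, of each other list, the 2 with the smallest p with 10 libraries; Krt8, Ucp1 and Dsg2 are named for the libraries. Alternatives were DESeq2 (1.42.0) and its size factors, library totals, scaling to the 18 cardiomyocyte markers, other filters on low counts, limma (3.58.1) on log2(TPM + 1) and log2(TPM + 0.1), Xist as a covariate, a replicate block, a threshold of 0.01 and each library left out. The pipeline was tested on simulated counts. The closest pair of libraries of a group, wild type 3 and 6, differed beyond sampling noise (chi-square of 7.52 per degree of freedom). Promoters are RefSeq windows on GRCm38.p6, an older build than that of the tables, matched by symbol.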

Additional observations from a re-analysis of the deposited data

Results flagged for a closer look

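A library was set beside the others of its group where its gap to the nearest of them was large against the whole range of the group (Dixon's 95% criterion). This held in 15 of 168 groups examined, and no cause was tested. Chance gives about 1 in 20 for a single group. The groups examined share libraries, and the smaller knock-in set lies within the larger, so no excess over chance can be read from the count. Wild type 1 was low for 4 oxidation genes and for their sum: Slc25a20 had 164 CPM, the rest of that group 213 to 242 CPM, Acadvl had 652 against 889 to 967 CPM, Acad11 had 126 against 171 to 182 CPM and Hadha had 819 against 1130.0 to 1290.0 CPM. The 32 genes together made up 1.23% of TPM in wild type 1 and 1.55% to 1.67% in the other wild-type libraries.

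Knock-in 2 was high for Ppargc1a (337 CPM, the rest of the knock-in group 42.2 to 103 CPM) and for Pparg (37.7 CPM, the rest 10.6 to 16.4 CPM), also when only knock-in 1, 3 and 7 were set beside it (14.9 to 16.4 CPM). It also had 1.6 CPM of Acsm5, against 0.872 to 0.983 CPM in knock-in 1, 3 and 7. Knock-in 3 had 30.5 CPM of Slc22a5 and 23.0 CPM of Esrrb, against 25.1 to 25.6 CPM and 16.9 to 17.8 CPM in knock-in 1, 2 and 7, and its Cpt1a share was 11.9% against 14.5% to 14.8%. Knock-in 6 had 171 CPM of Hsd17b10, the rest of its group 79.4 to 102 CPM, and knock-in 4 had 56.4 CPM of Acot7 against 31.9 to 41.4 CPM. Ppard was at 33.7 CPM in wild type 2 and at 24.5 to 27.8 CPM in the other wild-type libraries.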

How the results depend on the processing

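Leaving out each library gave 30 to 30 oxidation genes lower with 13 libraries and 30 to 31 with 10, 0 to 0 and 0 to 1 higher, 2533 to 3177 and 2544 to 3347 of all genes lower, 2957 to 3653 and 2613 to 3392 higher, and Cpt1a share differences of 5.39 to 6.29 and 6.58 to 7.54 points. Without knock-in 2 the count of higher genes with 10 libraries was 0, as it was at a threshold of 0.01, where all genes numbered 2006 lower and 1676 higher with 13 libraries and 2146 higher with 10. Scaled to library totals, 1661 of all genes were lower and 6110 higher with 13 libraries (1528 and 6049 with 10), the median of all genes was 0.33 and 0.26, that of the oxidation genes -0.91 and -0.76, and 28 and 27 oxidation genes were lower: the calls of Slc22a5 and Acaa1a were lost in both sets and those of Acad10 and Ucp3 with 10. Scaled to cardiomyocyte markers, 19 oxidation genes were lower and 3 higher with 13 libraries, with 356 and 11566 of all genes (472 and 9162 with 10). On log2(TPM + 1), 1087 of all genes were lower and 7665 higher (924 and 7737 with 10), and on log2(TPM + 0.1) 1098 and 7840 (933 and 7704 with 10); in both, 27 oxidation genes were lower with 13 libraries and 25 with 10, and 1, Cpt1a, was higher. The calls of Slc22a5, Acads and Acaa1a were then lost in both sets and those of Acacb, Acad10 and Ucp3 with 10. Over all named genes and alternatives, 2172 values kept their sign and call, 122 lost the call, 22 gained it and 69 changed sign.

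The labels do not say whether same-numbered libraries belong together. Their deviations from the group means correlated at -0.107 to 0.0937 over 6 pairs and -0.0297 to 0.237 over 3. Only knock-in 1 with 10 libraries correlated best with the wild-type library of its own number (0.237). A replicate block gave 2270 of all genes higher with 13 libraries and 1400 lower and 1385 higher with 10, where 26 oxidation genes were lower and 0 higher, with Slc22a5, Cpt1a, Acad10, Acaa1a, Acot13 and Ucp3 not called (edgeR adjusted p from 0.050 to 0.11); the Cpt1a share difference was 5.43 points with 13 libraries (exact p = 0.03125, the smallest 6 pairs allow) and 6.55 with 10 (exact p = 0.25, the smallest 3 pairs allow). Under the block Cpt1a changed sign to -0.023 with 13 libraries and Ppard to -0.043 with 10.

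The other changes of sign gave these log2 values. With library totals, Acad10 was 0.081, Rxra 0.13 and Aldh9a1 0.20 with 13 libraries, and Ppargc1a 0.079 and Rxra 0.22 with 10. With cardiomyocyte scaling and 13 libraries, Slc22a5 was 0.32, Acads 0.12, Acad10 0.78, Acaa1a 0.57, Ppargc1a 0.089, Ppargc1b 0.27, Esrra 0.30, Esrrb 0.26, Rxra 0.75, Hsd17b10 0.23, Acot7 0.55, Aldh9a1 0.93 and Tmlhe 0.22. With cardiomyocyte scaling and 10 libraries, Slc22a5 was 0.12, Acads 0.00073, Acad10 0.034, Acaa1a 0.27, Ppargc1a 0.31, Ppargc1b 0.29, Esrrb 0.24, Rxra 0.53, Acot7 0.0061 and Aldh9a1 0.044. On log2(TPM + 1), Acad10 was 0.15, Acaa1a 0.14, Rxra 0.30, Acot7 0.044 and Aldh9a1 0.32 with 13 libraries, and Acaa1a 0.12, Ppargc1b 0.13, Esrrb 0.073 and Rxra 0.35 with 10. On log2(TPM + 0.1), Acad10 was 0.20, Acaa1a 0.14, Rxra 0.32, Acot7 0.045 and Aldh9a1 0.33 with 13 libraries, and Acaa1a 0.12, Ppargc1b 0.15, Esrrb 0.084 and Rxra 0.37 with 10. With 10 libraries, Ppard was -0.0037 with DESeq2 size factors and -0.0045 with DESeq2, and Rxra 0.0077 with Xist as a covariate. Leaving out 1 library gave ranges across 0 of -0.17 to 0.041 for Aldh9a1, -0.052 to 0.15 for Cpt1a, -0.021 to 0.39 for Pparg and -0.046 to 0.15 for Ppard with 13 libraries, and of -1.11 to 0.14 for Ppargc1a, -0.096 to 0.037 for Rxra and -0.064 to 0.071 for Ppard with 10. The causes were not tested. Between 14498336 and 29848597 reads per library, Acad10 and Acot1 rested on the fewest of the 32 genes.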
